A study of Mus musculus with 90 samples.

Results

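The neuronal cytoskeleton and RNA-binding genes described here are 9 of the 24984 genes listed in each main count table: Tubb3, Tubb2b, Map2, Dcx, Stmn2, Gap43, Crmp1, Elavl3 and Elavl4. They were taken by gene name and followed through 2 differentiation courses of mouse embryonic stem cells, and all 9 passed the filter on low counts in both courses. The cells were J1 mouse embryonic stem cells in 5 lines that differ in CBX7, a chromodomain subunit of Polycomb repressive complex 1. In the line labelled CaPS, CBX7 carries the compaction and phase separation domain of its relative CBX2; in the line labelled mCaPS that domain is mutated; a further line is labelled KO for Cbx7; another is named CaPS-R in the labels, which give no more about it; and WT is the unmodified J1 line. All lines were kept on mouse fibroblast feeders with LIF, and the feeders were removed before the cells were aggregated. In the NPC course, aimed at neural progenitor cells, aggregates were grown without LIF and given 5 uM retinoic acid from day 4, and RNA was taken at days 0, 6 and 8. In the EB course, embryoid bodies were grown without LIF from hanging drops and RNA was taken at days 0, 6 and 10. Each of the 30 groups of line, course and day holds 3 libraries of rRNA-depleted RNA. The labels name no clones, so each modified line has to be read as 1 line.

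Beta-tubulins pair with alpha-tubulins to form microtubules, which fill axons and dendrites. Tubb3 is the beta-tubulin used as a marker of young neurons, and Tubb2b is abundant in the developing brain. Map2 bundles microtubules in dendrites, Dcx stabilises them in migrating young neurons, and Stmn2 binds free tubulin in growth cones. Gap43 is a membrane protein of growth cones, and Crmp1 takes part in semaphorin signalling to the growth cone cytoskeleton. Elavl3 and Elavl4 are neuronal members of the Hu family, which bind U-rich and AU-rich stretches of mRNA and affect its stability and splicing. Polycomb repressive complex 1 acts with Polycomb repressive complex 2 at promoters of developmental genes, many of them rich in CpG, in embryonic stem cells.

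In mm10 the genes lie apart from one another. Tubb3 spans chr8:123411553-123422015 (plus strand), Tubb2b chr13:34127008-34130354 (minus), Map2 chr1:66175329-66442583 (plus), Dcx chrX:143855842-143933219 (minus) and Stmn2 chr3:8509527-8561604 (plus). Gap43 spans chr16:42248561-42340651 (minus), Crmp1 chr5:37242058-37292163 (plus), Elavl3 chr9:22015005-22052023 (minus) and Elavl4 chr4:110203737-110351911 (minus). No exon of the 9 overlaps an exon of another annotated gene. Tubb2b is close in sequence to its neighbour Tubb2a, and how reads that fit both were counted is not given in the sources used here, so its counts are less certain than the rest. RefSeq promoter windows for GRCm38.p6, the assembly called mm10, were matched for 6 of the 9. The 250 bases before the annotated start are printed for 4, 5′ to 3′ on the gene's own strand, because they span the range from a CpG-dense start to a CpG-poor one among genes whose counts rose together. CG dinucleotides are in capitals.
Tubb3, chr8:123411303-123411552, plus strand: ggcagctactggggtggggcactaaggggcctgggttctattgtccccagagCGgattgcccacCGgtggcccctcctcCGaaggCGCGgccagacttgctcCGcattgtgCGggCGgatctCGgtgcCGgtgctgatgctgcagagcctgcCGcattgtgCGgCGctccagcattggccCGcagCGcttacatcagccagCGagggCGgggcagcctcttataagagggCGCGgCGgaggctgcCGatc
Map2, chr1:66175079-66175328, plus strand: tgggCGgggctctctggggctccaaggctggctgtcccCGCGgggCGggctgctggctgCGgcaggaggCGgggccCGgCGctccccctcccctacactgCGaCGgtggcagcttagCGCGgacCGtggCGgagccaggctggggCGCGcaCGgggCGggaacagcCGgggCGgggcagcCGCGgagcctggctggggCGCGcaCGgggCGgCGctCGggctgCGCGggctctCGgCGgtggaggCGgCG
Dcx, chrX:143933220-143933469, minus strand: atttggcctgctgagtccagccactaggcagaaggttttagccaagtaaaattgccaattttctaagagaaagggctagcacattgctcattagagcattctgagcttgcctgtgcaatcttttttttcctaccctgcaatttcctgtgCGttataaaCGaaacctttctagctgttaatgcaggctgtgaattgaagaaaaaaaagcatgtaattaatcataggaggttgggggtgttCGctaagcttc
Elavl3, chr9:22052024-22052273, minus strand: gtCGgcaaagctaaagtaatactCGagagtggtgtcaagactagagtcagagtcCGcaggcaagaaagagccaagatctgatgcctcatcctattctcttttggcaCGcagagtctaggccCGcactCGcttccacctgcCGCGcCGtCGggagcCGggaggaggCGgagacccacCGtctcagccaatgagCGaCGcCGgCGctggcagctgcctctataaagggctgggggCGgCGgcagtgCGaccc

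The Map2 window has 81.2% G and C with 34 CG dinucleotides, and the Dcx window 41.6% with 3. Tubb3 lies at 68.0% with 21 CG, and Elavl3 at 61.6% with 20. The windows at annotated gene starts that are not printed are those of Crmp1 (chr5:37241808-37242057), with 75.6% and 30 CG, and Elavl4 (chr4:110351912-110352161), with 53.6% and 14 CG. Windows at other starts were matched for 3 genes and are not printed either. That of Dcx has 44.8% and 3 CG, that of Crmp1 59.6% and 16 CG, and those of Elavl4 44.0% to 46.8% and 3 to 5 CG. Over 32817 RefSeq promoter windows of the same length the median is 52.4%. Short motifs were searched on both strands, and the counts that follow are for the windows at annotated gene starts. CCAAT, found in 33.8% of all windows, occurs once each in the Tubb3, Dcx and Elavl3 windows. GGGCGG, in 32.7% of all windows, occurs 5 times in the Map2 window, 5 times in that of Crmp1, 2 times in that of Tubb3 and once in that of Elavl3. TATAAA, in 12.4% of all windows, occurs in the Dcx and Elavl3 windows. CANNTG, in 66.2% of all windows, is met 2 times in the Elavl3 window. At the other starts, CANNTG is met 1 to 3 times in the Elavl4 windows and 1 time in that of Crmp1. There, CCAAT is met 1 to 2 times in the Elavl4 windows, TATAAA 1 time in that of Dcx and GGGCGG 2 times in that of Crmp1. A match is a description of letters, not of a bound site.

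The libraries of the 4 lines in the main tables held 11830340 to 59295504 counts in the NPC course and 10601858 to 55886291 in the EB course. The CaPS-R libraries held 11700345 to 29053288 and 11043361 to 109979089 counts over the genes shared with those tables. One 45S rRNA gene, Rn45s, took 4.24% to 50.3% of the counts of the 4 lines in the NPC course and 2.73% to 88.7% in the EB course. In CaPS-R it took 27.8% to 80.5% in the NPC course and 25.0% to 65.2% in the EB course. The 6 EB libraries numbered 1 of WT and CaPS stand apart: 42.1% to 43.5% of their counts between 1 and 20 were even numbers, against 73.5% to 94.1% in the other 30 libraries of the 4 lines. Cbx7 itself, summed over the whole gene, gave 112 to 137 CPM (counts scaled to a common library total) in the day 0 NPC libraries of the line labelled KO, against 157 to 191 CPM in WT. At day 8 it gave 14.7 to 47.5 CPM in that line and 17.3 to 20.7 CPM in WT. On that day it gave 42.9 to 69.7 CPM in CaPS, above every WT library, and 10.6 to 14.7 CPM in mCaPS, below every WT library. The log2 changes against WT there were 1.55 in CaPS (SE 0.33, edgeR quasi-likelihood test, adjusted p = 0.0798) and -0.55 in mCaPS (SE 0.32, adjusted p = 0.235). CaPS, mCaPS and the line labelled KO did not pass the test for Cbx7 against WT on any day of either course, and Cbx7 was not analysed in CaPS-R. The labels do not say which part of the gene was altered, so a count over the whole gene does not check the label, and the line is called the line labelled KO below. The labels do not say that libraries came from separate cultures, so p-values measure only the spread between these libraries, which may be technical. In these bulk samples, fewer cells of a type and less RNA per cell cannot be told apart.

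In WT cells of the NPC course, all 9 genes rose between day 6 and day 8, both of them days under retinoic acid. The rise was steepest in Dcx, Elavl3 and Map2 and smallest in Gap43 and Tubb2b. The genes reached day 8 by different routes. Stmn2, high in undifferentiated cells, had first fallen by day 6, Dcx had already risen by day 6, and the other 7 did not pass the test between days 0 and 6.

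Set against transcript length, the beta-tubulins stood above the rest at day 8. On the scale of CPM per kilobase of exon, Tubb2b averaged 289 ± 58.4 in WT at day 8, Tubb3 151 ± 82.9 and Crmp1 56.0 ± 17.1 (SD, n = 3 each). Gap43 (34.2 ± 20.6), Elavl3 (33.2 ± 9.72), Dcx (31.3 ± 16.0), Map2 (30.9 ± 14.4) and Stmn2 (29.8 ± 14.5) formed a group, and Elavl4 stood at 18.2 ± 3.28. The ranges of every pair of neighbours in that order overlapped, except for Tubb3 and Crmp1. At day 0 the order in WT was Tubb2b (76.1 ± 4.45), Stmn2 (60.4 ± 6.85), Tubb3 (43.4 ± 8.76), Crmp1 (16.6 ± 1.95), Gap43 (16.5 ± 2.98), Elavl3 (2.53), Map2 (1.35), Elavl4 (0.627) and Dcx (0.150), in CPM per kilobase. There, only Crmp1 and Gap43 overlapped among neighbours. Stmn2 was the second in this order at day 0 and the eighth at day 8, and Dcx was the last at day 0 and the sixth at day 8.

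Among the tubulins, Tubb3 gave 90.9, 60.5 and 75 CPM in the 3 WT libraries at day 0, 46.7, 14.5 and 20.5 CPM at day 6 and 429, 168 and 192 CPM at day 8. Every day 8 library lay above every library of the earlier days, and every day 6 library lay below those of day 0. The change at day 8 against day 6 was 3.27 ± 0.91 on the log2 scale (edgeR quasi-likelihood test, adjusted p = 0.0257; ± gives the SE here and for every log2 change). The earlier dip, -1.47 ± 0.85, did not pass (adjusted p = 0.178). Tubb2b gave 156, 144 and 139 CPM at day 0, 108, 134 and 97.6 CPM at day 6 and 678, 456 and 534 CPM at day 8. Its day 6 libraries lay just below those of day 0, and its day 8 libraries lay far above both. Its change at day 8 against day 6 was 2.30 ± 0.41 (adjusted p = 0.00131).

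The 3 microtubule regulators moved differently from one another. Map2 gave 11.8, 12.5 and 16.2 CPM at day 0, 27.4, 20.8 and 14.8 CPM at day 6 and 476, 223 and 230.3 CPM at day 8. The first 2 days overlapped, and the day 8 libraries lay far above both, with a change of 3.88 ± 0.65 against day 6 (adjusted p = 0.000758). Dcx gave 2.55, 0.26 and 1.3 CPM at day 0, 22.2, 6.71 and 5.47 CPM at day 6 and 456, 209 and 196 CPM at day 8. The days did not overlap, and Dcx passed at both steps, with 3.12 ± 0.97 at day 6 against day 0 (adjusted p = 0.0121) and 4.65 ± 0.97 at day 8 against day 6 (adjusted p = 0.00378). The first of these steps was lost without WT replicate 2 of day 0 (2.58, adjusted p = 0.0644) or without WT replicate 1 of day 6 (2.18, adjusted p = 0.0923). Stmn2 gave 129, 113 and 103 CPM at day 0, 7.31, 5.59 and 11.3 CPM at day 6 and 88.7, 41.5 and 40.3 CPM at day 8. It fell by 3.84 on the log2 scale at day 6 against day 0 (SE 0.59, adjusted p = 1.31e-05) and then rose by 2.82 ± 0.57 (adjusted p = 0.00295). Each of its day 8 libraries was still below each day 0 library.

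Of the growth cone genes, Gap43 gave 24.7, 22.7 and 17.2 CPM at day 0, 11.5, 14.4 and 10.2 CPM at day 6 and 74.2, 21.9 and 37.3 CPM at day 8. Day 8 overlapped day 0 but not day 6, and the change at day 8 against day 6 was 1.88 ± 0.51 (adjusted p = 0.0225). Crmp1 gave 60.9, 60.9 and 49.3 CPM at day 0, 36, 21.7 and 22.3 CPM at day 6 and 259.9, 165 and 152 CPM at day 8, and changed by 2.85 ± 0.70 at the last step (adjusted p = 0.0127). Replicate 1 of WT was the highest day 8 library for both genes, as it was for all 9. The calls of Tubb3, Gap43 and Crmp1 at this step were lost without that library (adjusted p 0.107, 0.19 and 0.0558), without WT replicate 2 of day 6 (adjusted p 0.113, 0.0567 and 0.0645) or without WT replicate 3 of day 6 (adjusted p 0.127, 0.118 and 0.0803), and that of Gap43 also without WT replicate 1 of day 6 (adjusted p = 0.0724). Their log2 changes without those libraries ran from 1.22 to 3.03. Same-numbered WT libraries of days 6 and 8 varied together, and with the replicate number as a block, in a fit of only these 6 libraries, 8 of the 9 genes passed, where 17.5% of all genes did. Gap43 was the one that did not (1.69, adjusted p = 0.05002, just above the threshold of 0.05).

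The RNA-binding genes were low at first and rose late. Elavl3 gave 14.2, 9.96 and 14 CPM at day 0, 12.6, 5.16 and 6.23 CPM at day 6 and 214, 171 and 116 CPM at day 8, and Elavl4 gave 3.15, 2.81 and 2.68 CPM at day 0, 6.09, 6.67 and 7.03 CPM at day 6 and 97.5, 86 and 67.7 CPM at day 8. Day 8 lay apart from both earlier days in each, with 4.39 ± 0.79 for Elavl3 (adjusted p = 0.00137) and 3.67 ± 0.71 for Elavl4 (adjusted p = 0.00209) against day 6.

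**Figure D1:**
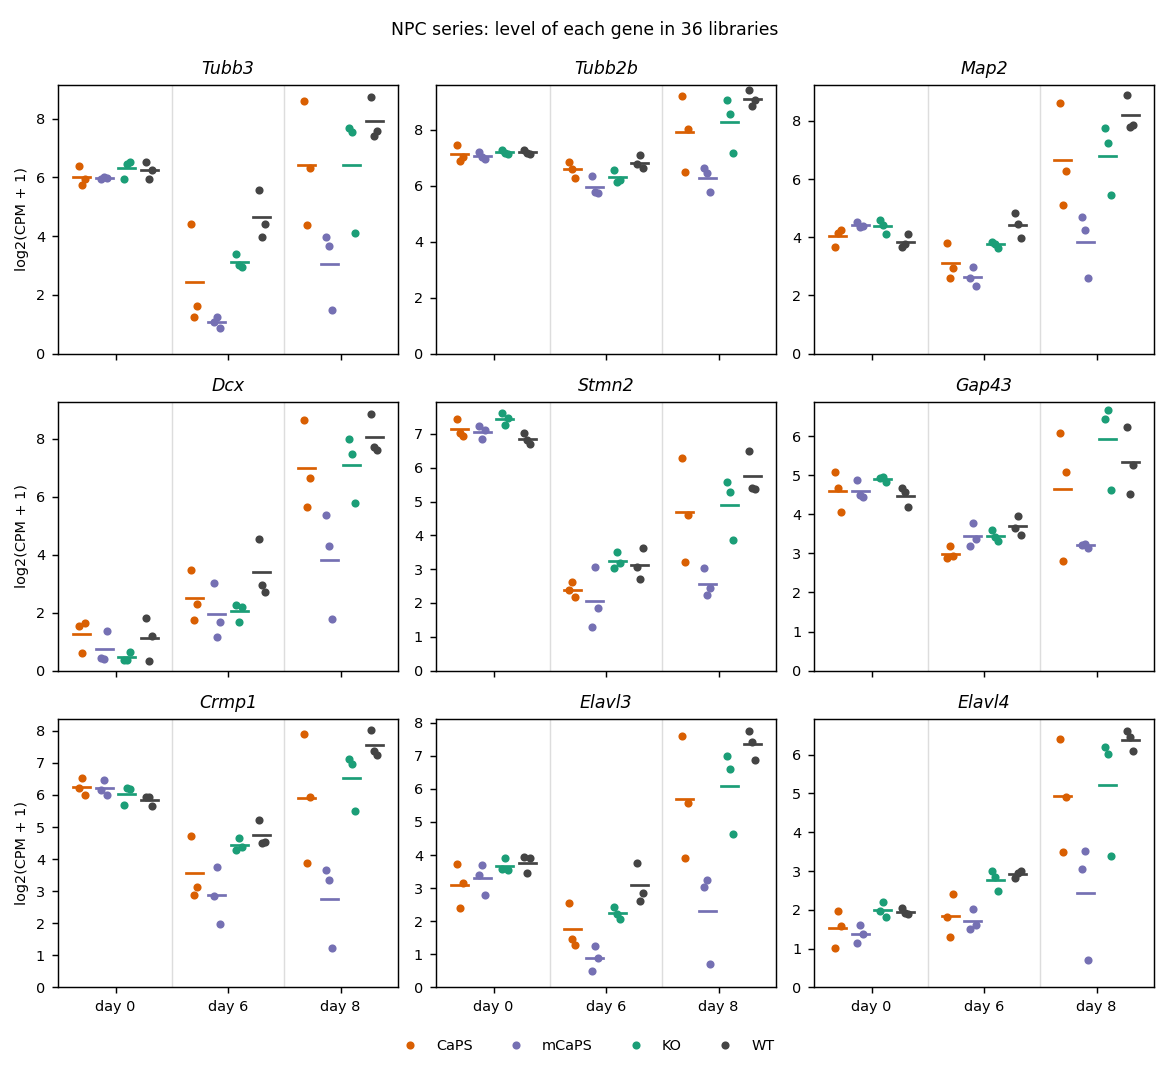
Level of each of the 9 genes in the NPC course, as log2(CPM + 1), for each library of 4 lines at days 0, 6 and 8; points are libraries and bars are group means. In WT all 9 are higher at day 8 than at day 6, while the mCaPS libraries of day 8 stay below every WT library of that day.

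Over the whole table, 7.34% of the 17818 genes tested passed the threshold (adjusted p below 0.05) between days 6 and 8, against 9 of the 9 genes described, and 37.3% passed between days 0 and 6, against 2 of the 9. For day 8 against day 0 the shares were 52.4% of all genes and 6 of the 9: Tubb2b, Map2, Dcx, Crmp1, Elavl3 and Elavl4, all higher. Dcx had the largest of these changes among the 9, 7.76 ± 1.14 (adjusted p = 2.73e-06), followed by Elavl4 with 4.86 ± 0.76 and Map2 with 4.52 ± 0.67. Tubb3 (1.80 ± 0.86, adjusted p = 0.079), Gap43 (1.05 ± 0.50, adjusted p = 0.0784) and Stmn2 (-1.02 ± 0.53, adjusted p = 0.111) did not pass over the whole interval. Crmp1 (1.75 ± 0.67, adjusted p = 0.0305) was lost without any 1 of the day 0 WT libraries or without WT replicate 1 of day 8 (adjusted p 0.0644 to 0.123). Without that last library Stmn2 passed instead, with -1.59 (adjusted p = 0.0325), and without WT replicate 2 of day 8 Gap43 passed with 1.37 (adjusted p = 0.0341).

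Other genes of the same 2 kinds rose with them. Of 30 further genes of the neuronal cytoskeleton and growth cone, 17 rose and none fell between days 6 and 8, with a median log2 change of 1.60 against 0.01 over all genes tested and 3.27 for the 9. They include the neurofilament subunits Nefm (4.62 ± 0.99) and Nefl (3.84 ± 0.89), and at the low end Dpysl2 (1.26 ± 0.36), a relative of Crmp1, and Basp1 (1.16 ± 0.33), a membrane protein of growth cones. Of 20 further neuronal RNA-binding genes, 11 rose and none fell, with a median of 1.59. Among them were the splicing regulators Rbfox1 (4.52 ± 1.14) and Celf3 (4.23 ± 0.65). Of 7 counterparts used outside neurons, 3 fell and none rose: Ptbp1, the splicing repressor of non-neuronal cells (-0.67 ± 0.12), Rest, a repressor of neuronal genes (-0.69 ± 0.18), and the beta-tubulin Tubb6 (-1.26 ± 0.33).

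Between days 0 and 6, where 37.3% of all genes passed, 5 of the 30 cytoskeleton genes rose, with Dpysl5 at 2.43 ± 0.62 and Tagln3 among them, and 7 fell, with the neurofilament gene Nefh at -3.52 ± 0.64. Of the RNA-binding genes 6 rose, led by Msi1 (3.73 ± 0.50), a gene of neural progenitors, and 1 fell, Celf5 (-1.61 ± 0.39). Rest fell by 2.06 (SE 0.19) in the same interval. At day 8 against day 0, 21 of 30 cytoskeleton genes were higher and 2 lower, Nefh (-4.18 ± 0.66) and Prph, and 16 of 20 RNA-binding genes were higher and none lower, with the splicing regulator Srrm4 at 5.37 ± 0.75.

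In mCaPS cells at day 8 of the NPC course all 9 genes were lower than in WT cells, by log2 changes of -4.95 for Elavl3 to -2.43 for Gap43. The 9 pass in the same direction in a comparison where 18.5% of all genes tested passed and 9.06% were lower. No mCaPS library reached the lowest WT library for any of them, and the share of all genes with such a gap was not computed. The gap was there in part at day 6 and was not seen at day 0.

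The gap in the tubulins at day 8 can be read from single libraries. Tubb3 gave 14.7, 11.7 and 1.78 CPM in mCaPS cells, against 429, 168 and 192 CPM in WT cells. The highest mCaPS library lay far below the lowest WT library, and the change was -4.79 ± 0.98 (adjusted p = 0.00203). Tubb2b gave 97, 87.5 and 53.7 CPM in mCaPS cells, against 678, 456 and 534 CPM in WT cells, a change of -2.81 ± 0.42 (adjusted p = 0.000455). Replicate 3 was the lowest mCaPS library for both, and it was the lowest for 8 of the 9 genes.

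The microtubule regulators showed the same order of groups. Map2 gave 25.1, 18.1 and 5.04 CPM in mCaPS cells, against 476, 223 and 230.3 CPM in WT cells (-4.26 ± 0.66, adjusted p = 0.000468). Dcx gave 40.3, 18.8 and 2.39 CPM in mCaPS cells, against 456, 209 and 196 CPM in WT cells (-3.80 ± 0.93, adjusted p = 0.00643). Relative to its mean, Dcx had the widest spread of the 9 among the mCaPS libraries, where replicate 1 was far above replicate 3. Stmn2 gave 7.2, 3.74 and 4.4 CPM in mCaPS cells, against 88.7, 41.5 and 40.3 CPM in WT cells (-3.47 ± 0.59, adjusted p = 0.00063). All 3 were clear of the WT range.

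Gap43 gave 8.37, 8.52 and 7.89 CPM in mCaPS cells, the narrowest spread of the 9, against 74.2, 21.9 and 37.3 CPM in WT cells (-2.43 ± 0.52, adjusted p = 0.0028). Crmp1 gave 11.6, 9.12 and 1.36 CPM in mCaPS cells, against 259.9, 165 and 152 CPM in WT cells (-4.70 ± 0.77, adjusted p = 0.000543). For the growth cone genes, as for the rest, the groups did not overlap. Elavl3 gave 7.11, 8.4 and 0.647 CPM in mCaPS cells, against 214, 171 and 116 CPM in WT cells (-4.95 ± 0.82, adjusted p = 0.000585). Elavl4 gave 7.32, 10.5 and 0.647 CPM in mCaPS cells, against 97.5, 86 and 67.7 CPM in WT cells (-3.76 ± 0.71, adjusted p = 0.00127). Both Hu genes were below 1 CPM in mCaPS replicate 3.

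**Figure D2:**
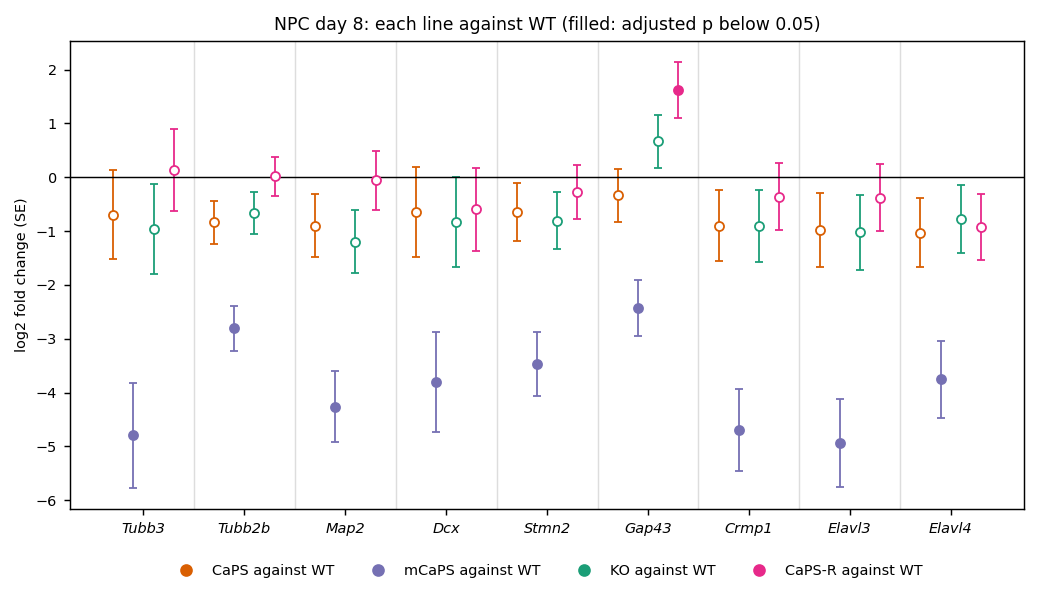
Log2 change of each gene at day 8 of the NPC course in the CaPS, mCaPS, KO and CaPS-R lines against WT; points are the estimates, error bars the SE, and filled points passed at an adjusted p below 0.05. All 9 mCaPS estimates are filled, from -4.95 for Elavl3 to -2.43 for Gap43, and the only other filled point is Gap43 in CaPS-R.

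At day 6, 2 of the 9 were lower in mCaPS cells than in WT cells, where 2.22% of all genes passed. Tubb3 gave 1.13, 1.37 and 0.814 CPM in mCaPS cells, against 46.7, 14.5 and 20.5 CPM in WT cells (-4.61 ± 1.00, adjusted p = 0.0193). Elavl3 gave 0.423, 1.37 and 0.865 CPM in mCaPS cells, against 12.6, 5.16 and 6.23 CPM in WT cells (-3.18 ± 0.79, adjusted p = 0.0324). For 6 of the 9 every mCaPS library lay below every WT library at day 6, and the share of all genes that did so was not computed. Neither call held without WT replicate 1, WT replicate 2, mCaPS replicate 1 or mCaPS replicate 3 of day 6 (0 of 9 each), and 1 call was left without WT replicate 3. At day 0 none of the 9 passed, with log2 changes of -0.83 to 0.60, where 3.02% of all genes did.

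Genes of the same kinds were lower with them at day 8. In mCaPS cells 24 of 30 cytoskeleton genes were lower than in WT and none higher, with a median of -2.25 against 0.00 over all genes. Tagln3 (-4.49 ± 0.85) and the microtubule stabiliser Map6 (-4.39 ± 0.75) lay at one end and Mllt11 (-1.11 ± 0.38) and Basp1 (-0.95 ± 0.33) at the other. Of the RNA-binding genes 16 of 20 were lower and none higher, with Srrm4 at -4.48 ± 0.71 and Celf6 at -4.25 ± 0.90. The counterparts used outside neurons went the other way, with 3 of 7 higher: Tubb6 (0.96 ± 0.33), Rest (0.68 ± 0.18) and Ptbp1 (0.42 ± 0.12).

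Markers of other cell states also differed between mCaPS and WT cells at day 8, where 18.5% of all genes tested passed in either direction and 9.06% were lower. Of 12 neural progenitor genes 8 were lower in mCaPS, with the lipid-binding protein gene Fabp7 at -5.54 ± 1.24. Of 18 proneural genes 16 were lower, with the transcription factor Myt1 at -5.51 ± 0.97. Of 10 mesoderm and heart genes 5 were higher, with Hand1 at 5.42 ± 1.35 and Gata4 at 3.79 ± 0.88, and of 8 endoderm genes 3 were higher, with Gata6 at 3.95 ± 0.87. Of 12 fibroblast and feeder genes 3 were higher, with Postn at 3.81 ± 1.09, and of 8 pluripotency genes 2 were higher, while none of 8 glial genes passed. Summed over each list, progenitor genes gave 173 to 567 CPM in mCaPS and 1792 to 2345 CPM in WT. Mesoderm and heart genes gave 306 to 512 CPM in mCaPS and 15 to 49.2 CPM in WT, with 0 to 3 of the 10 genes at 0 in a library. Endoderm genes gave 173 to 418 CPM in mCaPS and 45.8 to 77.1 CPM in WT, and feeder genes 737 to 2477 CPM in mCaPS and 93 to 282 CPM in WT. None of these sums overlapped between the lines. The part of these cell types in the lower counts of the 9 genes was not tested.

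**Figure D3:**
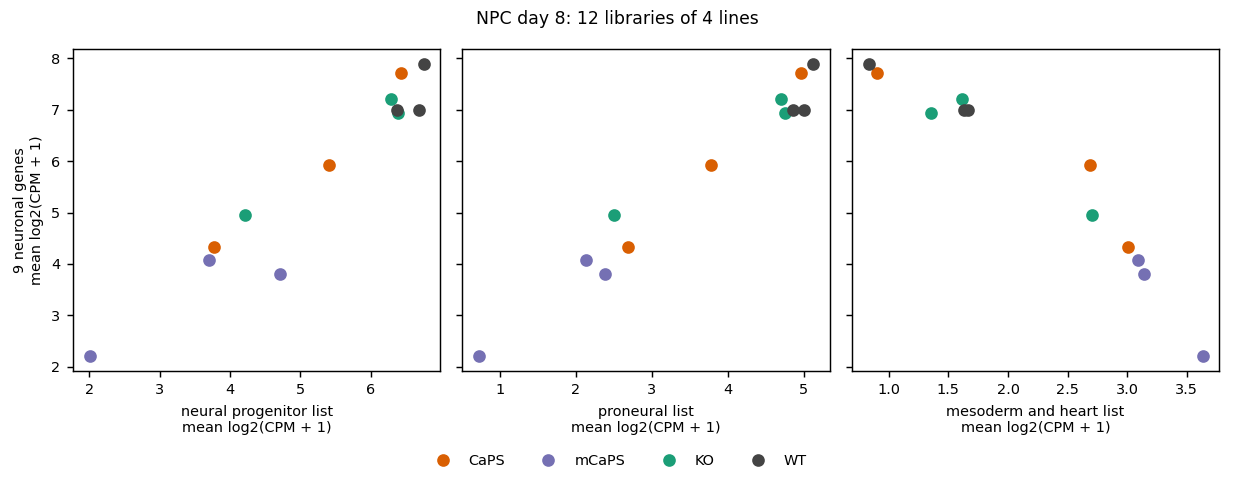
Mean log2(CPM + 1) of the 9 genes (vertical axes) against that of the neural progenitor, proneural, and mesoderm and heart lists (horizontal axes) in the 12 NPC day 8 libraries of 4 lines; each point is a library, coloured by line. The mCaPS libraries sit at 2.21 to 4.07 for the 9 genes and the WT libraries at 6.99 to 7.89, and on the mesoderm and heart axis mCaPS lies at 3.09 to 3.63 and WT at 0.83 to 1.66.

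The change over time itself differed between mCaPS and WT. With the change at day 8 against day 0 in mCaPS set against that in WT, 8 of the 9 passed, all in the lower direction, where 9.49% of all genes passed and 4.82% were lower. This interaction test was added after the data were examined. Crmp1 differed most, by -5.07 ± 0.98 (adjusted p = 0.00269), and it fell by 3.32 on the log2 scale (SE 0.72) within mCaPS. Map2 differed by -4.86 ± 0.87 (adjusted p = 0.00164), and in mCaPS it did not pass between the days (-0.34 ± 0.59). Dcx was the exception, with -2.97 ± 1.34 (adjusted p = 0.164), and it rose in mCaPS by 4.79 ± 1.03 (adjusted p = 0.000414). Without WT replicate 1 of day 8, or without mCaPS replicate 3 of day 8, 5 of the 9 passed, and Tubb3, Gap43 and Elavl4 were lost in both cases.

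In CaPS cells none of the 9 passed against WT cells on any day of the NPC course, and 0.0112% of all genes tested passed at day 8, with 0% at days 0 and 6. The day 8 estimates were all below 0, from -1.03 ± 0.64 for Elavl4 (adjusted p = 0.759) to -0.34 ± 0.49 for Gap43 (adjusted p = 0.957). The 3 CaPS libraries were spread widely, and the groups overlapped for all 9. Tubb3 gave 390.2, 19.6 and 78.1 CPM in CaPS cells, against 429, 168 and 192 CPM in WT cells. Map2 gave 389, 33.2 and 76.1 CPM in CaPS cells, against 476, 223 and 230.3 CPM in WT cells. Elavl3 gave 194, 13.9 and 46.3 CPM in CaPS cells, against 214, 171 and 116 CPM in WT cells. CaPS replicate 1 lay inside the WT range in all 3 genes, replicate 3 below it and replicate 2 furthest below.

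Libraries of CaPS and WT with the same number varied together on day 8 of the NPC course, so the pairs were also set side by side. In the pair numbered 1 the 9 genes in CaPS stood at a median of 88.1% of their level in WT (81.6% to 91.0%). In the pair numbered 2 the median was 14.9% (8.14% to 27.5%), and in the pair numbered 3 it was 43.2% (33.0% to 88.3%). All 9 genes were lower in CaPS in all 3 pairs, by a small amount in the first. With the replicate number as a block, in a fit of only the 6 libraries compared, 0 of the 9 passed. Without CaPS replicate 1, 4 of the 9 passed as lower in CaPS than in WT: Tubb2b (-1.66, adjusted p = 0.0135), Map2 (-2.50, adjusted p = 0.0112), Stmn2 (-1.86, adjusted p = 0.0387) and Crmp1 (-2.38, adjusted p = 0.0456). The share of all genes that passed in that fit was not computed. Other lists also varied among the CaPS libraries, with the library lowest in the 9 genes being the highest in mesoderm and heart genes on the scale of mean log2(CPM + 1). Mesoderm and heart genes summed to 16.4 to 461 CPM in CaPS with a median of 338 CPM, and progenitor genes to 435 to 1959.7 CPM with a median of 908 CPM. Their part in the spread of the 9 genes was not tested. None of the 30 cytoskeleton and 20 RNA-binding genes passed between CaPS and WT at day 8.

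At day 6 the estimates in CaPS against WT ran from -1.74 ± 0.87 for Tubb3 (adjusted p = 0.785) to -0.24. For 5 genes, Map2, Stmn2, Gap43, Elavl3 and Elavl4, every CaPS library lay below every WT library. The share of all genes that did so was not computed. Tubb3 gave 20.5, 1.37 and 2.09 CPM in CaPS, against 46.7, 14.5 and 20.5 CPM in WT, so CaPS replicate 1 stood well above the other 2, and without that library Tubb3 passed (-4.07, adjusted p = 0.0489). In pairs of the same number, which varied together on this day too, the 9 genes in CaPS stood at a median of 47.5%, 33.9% and 45.6% of their level in WT in the pairs numbered 1, 2 and 3. Of the 9, 8 were lower in CaPS in all 3 pairs, and with the replicate number as a block none passed. At day 0 the estimates ran from -0.64 to 0.41.

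CaPS and mCaPS are labelled as differing in whether the added domain is mutated. Their Cbx7 counts at day 8 of the NPC course also lay apart, at 42.9 to 69.7 CPM in CaPS and 10.6 to 14.7 CPM in mCaPS. The part of this in the values below was not tested. Of the 9 genes, 8 were higher in CaPS than in mCaPS at day 8, where 1.59% of all genes passed and 1.17% were higher. Tubb3 differed by 4.10 ± 0.95 (adjusted p = 0.0263), Elavl3 by 3.97 ± 0.78 (adjusted p = 0.0146) and Crmp1 by 3.80 ± 0.74 (adjusted p = 0.0132). Dcx gave 402, 49.2 and 99.2 CPM in CaPS, against 40.3, 18.8 and 2.39 CPM in mCaPS, and did not pass (3.15 ± 0.90, adjusted p = 0.065) although the libraries did not overlap. Gap43 gave 66.8, 6.04 and 33 CPM in CaPS, against 8.37, 8.52 and 7.89 CPM in mCaPS, and passed (2.09 ± 0.51, adjusted p = 0.0364) although CaPS replicate 2 was below all 3 mCaPS libraries. Tubb2b and Elavl4 also overlapped through that library, and the other 6 did not overlap, where the share of all genes without overlap was not computed.

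The difference between CaPS and mCaPS rests on few libraries. No gene of the 9 passed without CaPS replicate 1 (adjusted p 0.5 to 0.596), without mCaPS replicate 2 (0.0538 to 0.0877) or without mCaPS replicate 3 (0.15 to 0.283), and all 9 passed without CaPS replicate 2 or without mCaPS replicate 1. None passed when only these 6 libraries were fitted. Of the lists, 8 of 30 cytoskeleton genes were higher in CaPS, with Map6 at 3.81 ± 0.73 and the tau gene Mapt at 2.54 ± 0.52. Of the RNA-binding genes 5 of 20 were higher, with Srrm4 at 3.53 ± 0.68 and Nova2 at 3.24 ± 0.62. At day 6 none of the 9 passed between these lines, where 0.0112% of all genes did.

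In the line labelled KO none of the 9 passed against WT at any day of the NPC course, where 5.52%, 0.0281% and 0.0505% of all genes passed at days 0, 6 and 8. At day 8 the estimates ran from -1.20 ± 0.59 for Map2 (adjusted p = 0.584) to 0.67 ± 0.49 for Gap43 (adjusted p = 0.774). Map2 gave 213, 149 and 42.8 CPM in the line labelled KO, against 476, 223 and 230.3 CPM in WT. Gap43 gave 86.7, 102 and 23.8 CPM in that line, against 74.2, 21.9 and 37.3 CPM in WT. Replicate 3 of the line labelled KO was the lowest of its group for all 9 genes. The groups did not overlap for Map2 and Crmp1, and the share of all genes without overlap on that day was not computed. At day 6, 5 genes (Tubb3, Tubb2b, Map2, Dcx and Elavl3) lay below every WT library in all 3 libraries of that line without passing. The share of all genes that did so was not computed.

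The CaPS-R line was counted in a separate table that holds part of the genes, so the line and the table cannot be told apart, and its values are given on the scale of the genes shared by both tables. Gap43 was the only gene of the 9 to pass against WT at days 6 and 8, and 1 of 9 is near the share of all genes on each day. At day 6 of the NPC course it gave 33, 93.8 and 70.7 CPM in CaPS-R cells, against 11.5, 14.2 and 10.1 CPM in WT cells. The groups did not overlap, and the change was 2.46 ± 0.54 (adjusted p = 0.00158); it was the only one of the 9 to pass, where 14.6% of all genes did. At day 8 it gave 51, 218 and 117 CPM in CaPS-R cells, against 71.1, 20.1 and 34.7 CPM in WT cells, and passed (1.62 ± 0.52, adjusted p = 0.0331) although the groups overlapped, where 14% of all genes did. That day 8 call was lost without WT replicate 2 (1.28, adjusted p = 0.18), WT replicate 3 (adjusted p = 0.126), CaPS-R replicate 2 (0.93, adjusted p = 0.346) or CaPS-R replicate 3 (adjusted p = 0.0597).

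The other 8 genes did not pass between CaPS-R and WT at day 8, with estimates of -0.93 ± 0.62 for Elavl4 (adjusted p = 0.365) to 0.13. Elavl4 gave 53.7, 30.4 and 39.5 CPM in CaPS-R cells, against 93.5, 78.9 and 62.9 CPM in WT cells, and did not overlap. Tubb3 gave 299, 300.3 and 214 CPM in CaPS-R cells, against 411, 154 and 178 CPM in WT cells, with the CaPS-R libraries inside the WT range. Elavl4 is the gene that passed, as lower, when only these 6 libraries were fitted (-0.95, adjusted p = 0.0217), and Gap43 did not pass there. At day 0 none passed, where 22.1% of all genes did. Of the lists at day 8, none of 28 cytoskeleton genes passed, 2 of 19 RNA-binding genes were higher in CaPS-R than in WT, Khdrbs3 (1.23 ± 0.31) and Rbfox2, and 3 of 6 non-neuronal counterparts were lower, with the broadly expressed Hu gene Elavl1 at -0.92 ± 0.17. Set against CaPS at day 8, Gap43 was higher in CaPS-R (1.94 ± 0.53, adjusted p = 0.00844), the only one of the 9 to pass where 19.1% of all genes did. CaPS-R and CaPS are each compared with the same WT libraries, and these comparisons are not independent.

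Within each line the course from day 0 to day 8 can be put side by side with that of WT. In CaPS 6 of the 9 passed: Tubb2b (1.15), Map2 (3.41), Dcx (6.98), Elavl3 (3.38) and Elavl4 (4.36) rose and Stmn2 (-1.97) fell, where 48.6% of all genes passed. In the line labelled KO 7 passed. These were the 6 just named, with Dcx at 8.74 and Stmn2 at -2.43, and Gap43 as higher (1.29 ± 0.50), where 43.3% of all genes passed. In mCaPS 2 rose, Dcx and Elavl4 (1.92 ± 0.68), and 4 fell: Tubb3 (-2.71 ± 0.89), Stmn2 (-4.71 ± 0.62), Gap43 (-1.52 ± 0.51) and Crmp1, where 46.2% of all genes passed. In CaPS-R 7 rose, among them Dcx, which had 6, 0 and 0 counts at day 0, with Gap43 at 2.41 ± 0.54 and Tubb3 at 2.36 ± 0.80, and Stmn2 fell (-1.51 ± 0.51), where 50.7% of all genes passed. The change in CaPS did not pass against that in WT for any of the 9 (-1.31 to -0.34, 0% of all genes), nor did that in the line labelled KO (-1.78 to 0.98, 0.337% of all genes).

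**Figure D4:**
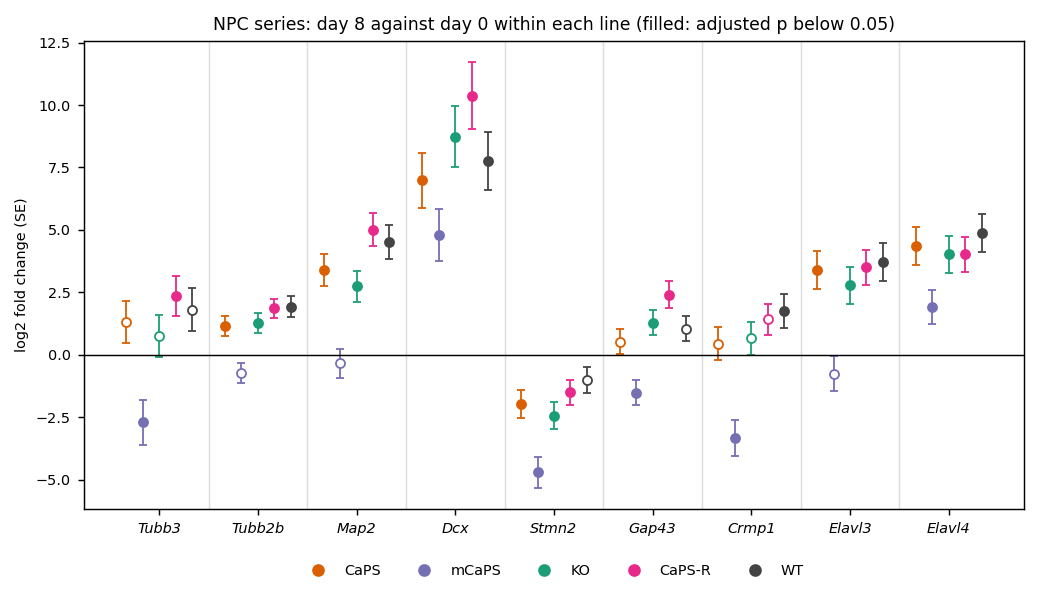
Log2 change of each gene at day 8 against day 0 of the NPC course in each of 5 lines; points are the estimates, error bars the SE, and filled points passed at an adjusted p below 0.05. Stmn2 lies below 0 in every line, and the mCaPS estimates are the lowest of the 5 lines for each gene.

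In the EB course, without retinoic acid, none of the 9 genes passed as higher in WT cells between days 0 and 10 in the fit of all libraries. At day 10, 6 of the 9 averaged less in WT than at day 0, with Map2, Dcx and Elavl4 as the exceptions. Of the 9, 2 passed as lower, where 29.2% of all genes passed. Tubb3 gave 129, 79.3 and 51.9 CPM at day 0, 53.8, 34.7 and 31.5 CPM at day 6 and 23.1, 15.4 and 13.2 CPM at day 10, with -2.33 ± 0.62 at day 10 against day 0 (adjusted p = 0.00501). Stmn2 gave 138, 135 and 72.1 CPM at day 0, 70.4, 70.6 and 58.1 CPM at day 6 and 32.3, 43.7 and 50.4 CPM at day 10, with -1.45 ± 0.32 over the same days (adjusted p = 0.00125). In both genes day 10 lay below day 0 in every library. Dcx gave 1.38, 0.824 and 1.42 CPM at day 10 and 0.119, 0.186 and 0.309 CPM at day 0, every day 10 library above every day 0 library, and did not pass in that fit (2.44 ± 1.34, adjusted p = 0.172). It passed as higher when only the 6 libraries of these days were fitted (2.49, adjusted p = 0.0204). Per kilobase of exon, Tubb2b (32.7), Stmn2 (22.1) and Tubb3 (9.90) stood first at day 10 and Dcx (0.132) last, in mean CPM.

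Gap43 was lowest at day 6 of the EB course in WT. It gave 21.4, 22.8 and 27.6 CPM at day 0, 3.71, 4.75 and 4.89 CPM at day 6 and 10.3, 15 and 10.7 CPM at day 10, and the 3 days did not overlap. It changed by -2.42 ± 0.44 at day 6 against day 0 (adjusted p = 0.000522), the only one of the 9 to pass where 7.88% of all genes did, and by 1.42 ± 0.43 at day 10 against day 6 (adjusted p = 0.0209), where 16.2% of all genes passed. Elavl3 was the other gene to pass at this last step. It gave 0.222, 4 and 2.47 CPM at day 10 and 6.81, 12.8 and 12.6 CPM at day 6 (-2.26 ± 0.78, adjusted p = 0.0449). Neither call held without replicate 1 or without replicate 3 of WT at day 6, and 1 held without each of the other WT libraries of these days.

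Same-numbered WT libraries of the EB course varied together, and with the replicate number as a block, in a fit of only the 6 libraries compared, more of the 9 genes passed. At day 6 against day 0 these were 5, where 11.5% of all genes passed in the same fit: Tubb3 (-1.06), Tubb2b (-1.09), Dcx (3.06), Stmn2 (-0.74) and Gap43 (-2.43). At day 10 against day 6 they were also 5, where 30.6% of all genes passed: Tubb3 (-1.21), Stmn2 (-0.66), Gap43 (1.42), Crmp1 (-1.61) and Elavl3 (-2.60). At day 10 against day 0 they were 6, where 34.6% of all genes passed: Tubb3 (-2.25), Tubb2b (-0.90), Dcx (2.51), Stmn2 (-1.39), Gap43 (-0.99) and Crmp1 (-1.13). The lists were counted in the fit of all libraries, where 29.2% of all genes passed between days 0 and 10 in WT. There, 5 of 30 cytoskeleton genes rose and 6 fell, with Nefh at -4.82 ± 0.60. Of the RNA-binding genes 2 rose, Msi1 (2.45 ± 0.80) and Ptbp2 (1.52 ± 0.43), and 1 fell, Celf4 (-2.21 ± 0.53), while all 10 mesoderm and heart genes and all 8 endoderm genes rose.

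At day 10 of the EB course 1 CaPS library carried most of what the line showed. None of the 9 genes passed between CaPS and WT, where 0.00562% of all genes did, although 6 had an unadjusted p below 0.05. Tubb3 gave 22.8, 23.5 and 371 CPM in CaPS cells, against 23.1, 15.4 and 13.2 CPM in WT cells (3.01 ± 0.63, adjusted p = 0.0949). Dcx gave 1.03, 0.917 and 182 CPM in CaPS cells, against 1.38, 0.824 and 1.42 CPM in WT cells (5.66 ± 1.33, adjusted p = 0.162). Map2 gave 14.2, 14.5 and 144 CPM in CaPS cells, against 9.21, 10.6 and 11.3 CPM in WT cells, the only one of the 9 whose groups did not overlap. CaPS replicate 3 stood above every WT library for all 9 genes, at 197.5% of the WT mean for Stmn2 to 15083% for Dcx, with a median over the 9 of 1232%. The medians of CaPS replicates 1 and 2 were 86.2% and 98.4%.

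That library was also the highest of its group in other neural lists. Proneural genes summed to 38.7 to 433 CPM in CaPS with a median of 52.5 CPM, against 49.6 to 67.5 CPM in WT, and progenitor genes to 229 to 902 CPM in CaPS, against 103 to 309.6 CPM in WT. The part of these cells in the result was not tested. When CaPS replicate 1 was left out, 5 of the 9 passed against WT, with Tubb3 at 3.52 (adjusted p = 0.00395) and Dcx at 6.24. Without CaPS replicate 2, 6 passed. Both fits keep CaPS replicate 3, and without that library none of the 9 passed. With DESeq2 in place of edgeR, 3 passed: Tubb3, Map2 and Elavl3. The share of all genes that passed in these alternative fits was not computed. At day 6 the estimates in CaPS against WT ran from -0.51 to 0.67, and no gene of the 9 passed, with 0% of all genes passing.

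**Figure D5:**
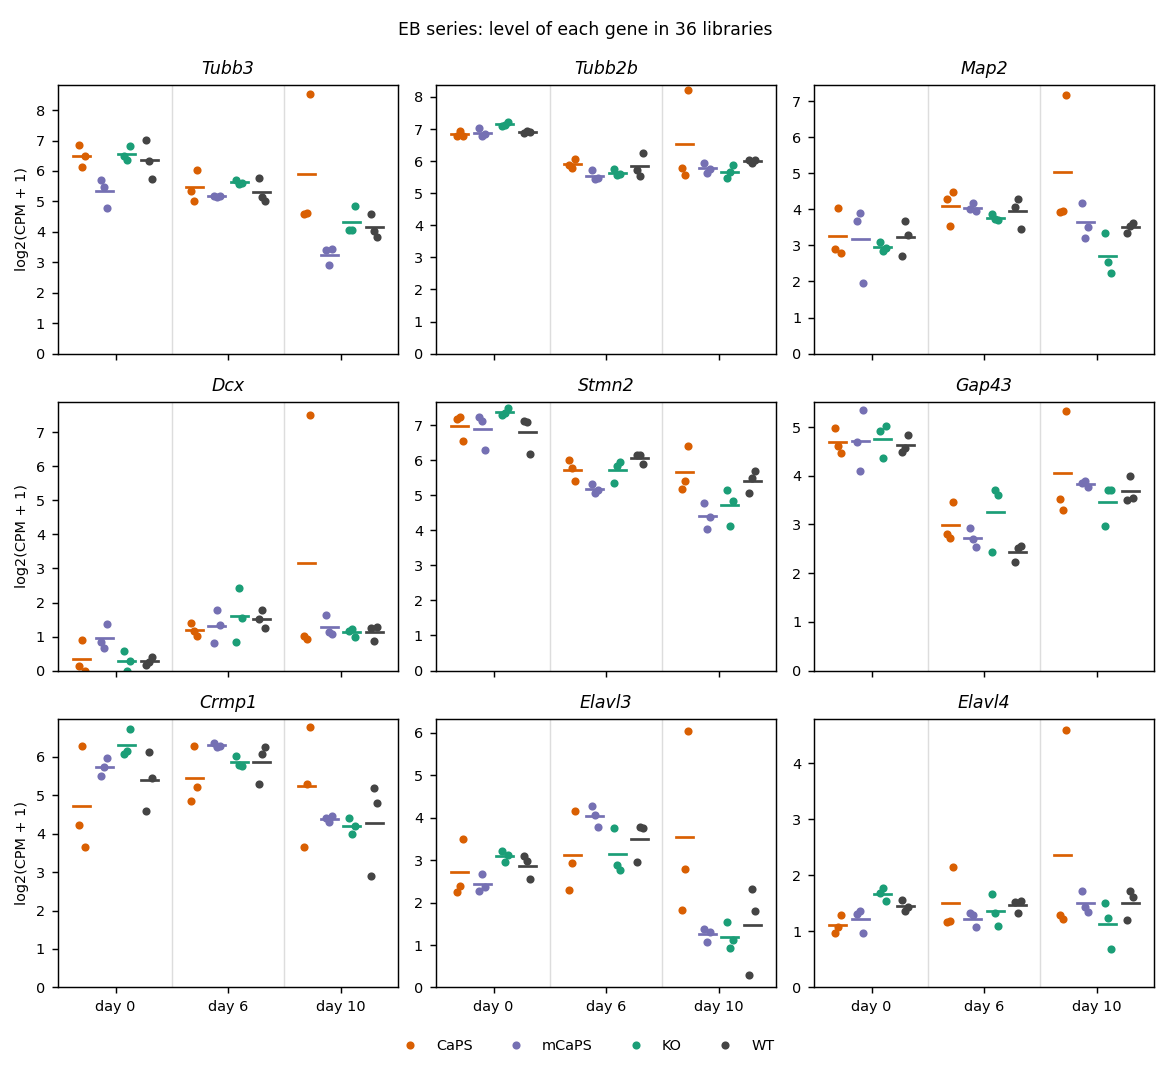
Level of each of the 9 genes in the EB course, as log2(CPM + 1), for each library of 4 lines at days 0, 6 and 10; points are libraries and bars are group means. The point far above the rest at day 10 of CaPS is replicate 3, with 371 CPM of Tubb3 and 182 CPM of Dcx.

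CaPS against mCaPS at day 10 of the EB course gave 5 of the 9 as higher, where 3.18% of all genes passed. These were Tubb3 (4.00 ± 0.66, adjusted p = 0.000375), Map2 (2.27 ± 0.61), Dcx (5.38 ± 1.30), Stmn2 (1.38 ± 0.32) and Elavl3 (4.13 ± 0.83). Tubb3 gave 22.8, 23.5 and 371 CPM in CaPS, against 9.63, 6.44 and 9.94 CPM in mCaPS, and Stmn2 gave 35.1, 41.5 and 83.2 CPM in CaPS, against 26.4, 15.5 and 19.7 CPM in mCaPS. In both, every CaPS library was above every mCaPS library. Without CaPS replicate 3, Tubb3 alone passed, while Map2 was at 0.27 (adjusted p = 0.873), Dcx at -0.60 (adjusted p = 0.853), Stmn2 at 0.90 (adjusted p = 0.253) and Elavl3 at 1.61 (adjusted p = 0.333). Without mCaPS replicate 1, 2 or 3 the number that passed was 3, 2 and 2. None passed when only these 6 libraries were fitted.

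None of the 9 genes passed between mCaPS and WT, or between the line labelled KO and WT, on any day of the EB course. Between 0.54% and 0.916% of all genes passed for mCaPS and between 0.641% and 0.877% for the line labelled KO. At day 10 mCaPS estimates ran from -1.04 ± 0.32 for Stmn2 (adjusted p = 0.226) to 0.29. Stmn2 gave 26.4, 15.5 and 19.7 CPM in mCaPS, against 32.3, 43.7 and 50.4 CPM in WT, and the groups did not overlap. In the line labelled KO the day 10 estimates ran from -0.82 to 0.20. The change at day 10 against day 0 did not pass against that in WT for any of the 9 in CaPS, mCaPS or the line labelled KO, where 0%, 0% and 0.00562% of all genes passed.

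In the EB course of mCaPS 3 of the 9 fell between days 0 and 10, Tubb3 (-2.23 ± 0.62), Tubb2b (-1.12 ± 0.37) and Stmn2 (-2.56 ± 0.34), and none rose, where 36.3% of all genes passed. The day 0 group includes mCaPS replicate 3, with 88.7% of its counts in Rn45s. It held 168 counts of Tubb3, 715 of Tubb2b and 486 of Stmn2. In the line labelled KO 6 fell and none rose, where 25.3% of all genes passed: Tubb3, Tubb2b, Stmn2, Gap43, Crmp1 and Elavl3. Elavl3 gave 1.9, 0.913 and 1.16 CPM at day 10 and 8.28, 6.72 and 7.77 CPM at day 0 in that line (-2.51 ± 0.78, adjusted p = 0.0179). Crmp1 gave 20.1, 14.9 and 17.3 CPM at day 10 and 65.9, 69.7 and 104 CPM at day 0 (-2.19 ± 0.62, adjusted p = 0.0102). Neither gene overlapped between the days. In CaPS 3 rose, Map2 (2.63 ± 0.62), Dcx and Elavl4 (2.87 ± 0.67), and Stmn2 fell (-1.27 ± 0.32), where 26.7% of all genes passed. Dcx gave 0.0875, 0.865 and 0 CPM at day 0 in CaPS and 1.03, 0.917 and 182 CPM at day 10. Elavl4 gave 0.962, 1.10 and 1.46 CPM at day 0 and 1.45, 1.33 and 23.1 CPM at day 10. Map2 gave 6.52, 15.5 and 5.96 CPM at day 0 and 14.2, 14.5 and 144 CPM at day 10. In all 3 genes CaPS replicate 3 lay far above the other day 10 libraries of the line. In CaPS-R none passed, where 20.1% of all genes did. Between CaPS and mCaPS at EB day 6 none of the 9 passed, where 1.12% of all genes did.

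In CaPS-R cells Gap43 was the only one of the 9 to pass at day 6 of the EB course, a count again near the share of all genes. It gave 14.7, 21 and 21.9 CPM in CaPS-R cells, against 3.81, 4.95 and 5.14 CPM in WT cells, and the groups did not overlap (2.04 ± 0.47, adjusted p = 0.00351; 8.86% of all genes). At day 0 none passed, where 9.7% of all genes did. At day 10 none of the 9 passed against WT, where 17.3% of all genes did. Tubb2b gave 106, 127 and 86.9 CPM in CaPS-R cells, against 66.1, 62.9 and 66.9 CPM in WT cells, and Stmn2 gave 67.7, 78.5 and 73.9 CPM in CaPS-R cells, against 33.4, 45.6 and 52.4 CPM in WT cells. Every CaPS-R library was above every WT library in both genes, with 0.71 ± 0.34 (adjusted p = 0.154) for Tubb2b and 0.74 ± 0.31 (adjusted p = 0.0872) for Stmn2. Against CaPS at day 10, 6 genes were lower in CaPS-R, with Tubb3 at -2.62 ± 0.57 (adjusted p = 0.00175), where 14.2% of all genes passed. Tubb3 gave 17.5, 27.4 and 25 CPM in CaPS-R cells, against 23.4, 24.6 and 381 CPM in CaPS cells. All 6 overlapped between the lines, and CaPS replicate 3 lay apart from the other libraries.

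Across the 36 NPC libraries of 4 lines the 9 genes did not all follow one profile. The Pearson correlation of each gene with their mean standardised profile was 0.979 for Elavl3, 0.972 for Tubb2b, 0.951 for Map2, 0.918 for Tubb3, 0.904 for Crmp1, 0.880 for Gap43 and 0.810 for Elavl4, and it was lower for Dcx (0.689) and Stmn2 (0.590). Among the closest pairs were Map2 and Elavl3 (0.962), Tubb2b and Elavl3 (0.951) and Tubb3 and Crmp1 (0.944), while Stmn2 and Dcx, high at opposite ends of the course, had -0.15. Genes outside the 9 with a profile much like their mean included Rundc3a (0.959), Celsr3 (0.950), Scn3a (0.949) and Stmn3 (0.948). These correlations are a description of libraries that share lines and days, and carry no test. For each of the 9 the mean profile includes the gene itself, which raises its value, while genes outside the 9 have no such part in it.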

How the data were processed

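RNA was measured by rRNA-depleted, directional sequencing in 90 libraries (30 groups of 3). The authors deposited raw read counts per gene, with no normalization. Per the submitters' processing notes, the genome was mm10, and STAR 2.7.0, HOMER 4.10.4, cutadapt 1.14, edgeR and featureCounts 1.6.3 are listed without their roles. The strand setting of the counting is not given in the sources used here, so reads from a strand-opposed gene could enter a count. WT, CaPS, mCaPS and KO share a table per course with 24984 genes, and CaPS-R has tables of its own. The 9 deposited sample columns that matched no sample were not used, and 23 gene names turned into dates were left out of the EB table (22 of each CaPS-R table).

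Library sizes were scaled by TMM, and CPM follow from the scaled totals. Genes were filtered with filterByExpr, which kept 17818 genes in the NPC course and 17791 in the EB course. Quasi-likelihood models (edgeR 4.0.16, limma 3.58.1, R 4.3.3) were fitted to 36 libraries in 12 groups per course, with 24 residual degrees of freedom and common dispersions of 0.127 and 0.152, and to 45 libraries over the genes shared by both tables (15334 and 15379 tested) for CaPS-R. P-values were adjusted over all genes tested (Benjamini-Hochberg), and a gene passed at an adjusted p below 0.05. The SE is the log2 change divided by the root of its F statistic. The comparison of mCaPS against WT at NPC day 8 was also run on counts simulated from the fitted model, with known changes set in some genes. Those counts were drawn independently, so that run does not test how libraries with the same number varied together, nor the other comparisons. Comparisons against WT share the WT libraries and are not independent.

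The members and the gene lists were chosen with earlier results of these data known. The lists hold neuronal cytoskeleton genes, neuronal RNA-binding genes, their non-neuronal counterparts, and neural progenitor, proneural, glial, pluripotency, mesoderm and heart, endoderm, and fibroblast and feeder markers. Named from each list are the genes that passed with the 2 largest and 2 smallest changes; all members are named. Of the 5 genes most like the members, 1 is not reported here.

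Same-numbered libraries were taken as pairs where the correlation of their deviations from the group means was over 0.1 in every pair. This held for WT NPC day 8 against day 6 (0.123 to 0.501), for CaPS against WT at NPC days 6 (0.157 to 0.586) and 8 (0.501 to 0.681) and EB days 6 (0.289 to 0.765) and 10 (0.268 to 0.751), and for the WT EB comparisons (0.299 to 0.738 over the 3). The labels do not say what a number marks. Alternatives were DESeq2 1.42.0 and its size factors, no filter, only the 6 libraries compared, the replicate block, Rn45s left out, the 6 EB libraries numbered 1 left out, and each library left out in turn. For these fits the share of all genes that passed was computed only for the replicate block in WT.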

Additional observations from a re-analysis of the deposited data

Results flagged for a closer look

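The change at day 8 against day 0 of the NPC course differed between mCaPS and WT cells for 8 of the 9 genes, by the test of the difference of the changes across all genes (edgeR, adjusted over all genes tested). The differences, mCaPS minus WT on the log2 scale, were -5.07 for Crmp1, -4.86 for Map2, -4.51 for Tubb3, -4.48 for Elavl3, -3.69 for Stmn2, -2.94 for Elavl4, -2.66 for Tubb2b and -2.57 for Gap43. The highest adjusted p among them was 0.0476, for Elavl4. All groups hold 3 libraries, so single libraries were not tested as outliers.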

How the results depend on the processing

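The 9 of 9 lower in mCaPS than in WT at NPC day 8 held under every alternative run but the replicate block, which gave 8, and with each library left out in turn (9 to 9). With only the 6 libraries compared, the counts of genes that passed became 6 for WT NPC day 6 against day 0, 5 for mCaPS against WT at NPC day 6, 0 for CaPS against mCaPS at NPC day 8, 2, 1 and 4 for WT EB day 6 against day 0, day 10 against day 6 and day 10 against day 0, 1 for mCaPS against WT at EB day 6 and 0 for CaPS against mCaPS at EB day 10. For CaPS-R against WT at NPC day 8 it was 1 in the other direction, Elavl4 as lower, with Gap43 no longer passing. With the replicate block those counts were 6, 6, 0, then 5, 5 and 6 for WT EB, 0 for CaPS against mCaPS at EB day 10 and 0 for CaPS-R; the numbers did not pair these last libraries nor those of the NPC comparisons just given, and the block moved no other count by over 1.5 times. With no filter they were 1 for mCaPS against WT at NPC day 6, 5 for CaPS against mCaPS at NPC day 8, 0 for CaPS-R at NPC day 8 and 1 for WT EB day 10 against day 6. DESeq2's size factors gave 1 for WT EB day 10 against day 6, and DESeq2 gave 3 for CaPS against WT at EB day 10. Without the 6 EB libraries numbered 1 of WT and CaPS, WT EB day 10 against day 6 gave 0 and CaPS against mCaPS at EB day 10 gave 8. The cause of these moves was not tested, beyond the fewer samples in some.

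Leaving out each library in turn gave 1 to 2 for WT NPC day 6 against day 0, 6 to 9 for day 8 against day 6, 5 to 7 for day 8 against day 0, 0 to 1 and 0 to 4 for CaPS against WT at NPC days 6 and 8, 0 to 2 for mCaPS against WT at NPC day 6, 0 to 9 for CaPS against mCaPS at NPC day 8, 0 to 1 for CaPS-R at NPC day 8, 0 to 1 for WT EB day 10 against day 6, 0 to 6 for CaPS against WT at EB day 10, 1 to 7 for CaPS against mCaPS at EB day 10 and 5 to 8 for the difference of the mCaPS and WT changes. Over single genes in 22 comparisons, 1091 of 1188 values with a library left out kept their direction and side of the threshold, 72 no longer passed, 24 newly passed, and 1 reversed: Dcx in CaPS against mCaPS at EB day 10 without CaPS replicate 3, at -0.60, the lowest of a range that reached 5.98 without CaPS replicate 2. Of 1287 values under the other alternatives, 1200 kept both, 42 no longer passed and 45 newly passed.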

Other observations

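Feeder and fibroblast genes were abundant in some undifferentiated libraries. At EB day 0 the 12 genes of that list summed to 1239 to 3855 CPM in CaPS and 2074 to 11549 CPM in mCaPS. On that day they gave 1052 to 1545 CPM in the line labelled KO and 518 to 4765 CPM in WT. At NPC day 0 the 12 genes summed to 404 to 5077 CPM in CaPS, 267 to 536 CPM in mCaPS, 253 to 769 CPM in the line labelled KO and 505 to 5226 CPM in WT, and 11 of the 12 fell by day 6 in WT. All 8 pluripotency genes also fell by day 6 in WT, while 9 of 12 neural progenitor and 10 of 18 proneural genes rose. At EB day 10, mesoderm and heart genes summed to 201 to 715 CPM in CaPS, 805 to 1190.4 CPM in mCaPS and 431 to 1274 CPM in WT, and no gene of any list passed between CaPS and WT. Their part in the values of the 9 genes was not tested.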
